A study of Macaca mulatta with 24 samples.

Results

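Complement is a cascade of plasma and tissue proteins in which the C1r and C1s proteases start the classical pathway, factor B and factor D build the convertase of the alternative pathway, C3 is the protein on which all pathways converge, and C7 is part of the membrane attack complex that inserts into target membranes. Factor I and the C1 inhibitor, encoded by SERPING1, restrain it. Hepatocytes make most of the plasma complement, while stromal cells, macrophages and epithelium of the gut also make components locally.

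The genes described here are C1R, C1S, C2, C3, C7, CFB, CFD, CFI and SERPING1, in ileum of young-adult male rhesus macaques after total-body irradiation (TBI). A gene counted as a member where the authors' normalized ileum table carries a probe under its symbol, and 4 of the 9 genes did: C3, C7 and CFB with 1 probe each and SERPING1 with 3, which makes 6 of the 43603 probes on the array. No probe is listed under the symbols C1R, C1S, C2, CFD and CFI, and these 5 genes were dropped. All 6 probes were well above background on all 24 arrays, so that all 4 genes were tested, among 36108 tested probes and 14160 genes. A CFD probe listed as LOC721138, and probes that the table describes as C1s-like and C1r-like, are given apart and are not counted among the members.

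The 4 unirradiated (0 Gy) animals were sham-irradiated and carry the label day 4, and they served as controls for every day. The other 20 animals received a single uniform dose of cobalt-60 gamma radiation, 6.7 Gy or 7.4 Gy, with 4 animals per dose on day 4, 4 on day 7 and 2 on day 12. Whole gut tissue was used, so that fewer or more cells of a type and less or more RNA per cell cannot be told apart. Each animal gave 1 array and its own RNA, without pooling. One protocol field speaks of 21 days where the sample titles and the day field give day 12, and day 12 was used.

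Signals are log2 intensities relative to the 75th percentile of the array, which is 0 on this scale. Altered means a change of 2-fold or more with a limma p under 0.05, adjusted over the tested probes by the method of Benjamini and Hochberg. Adjusted p below always means this value. The share of probes well above background ran from 72.7% to 88.1% over the arrays, and the number of animals limits the precision. All controls lie in array position 1 of their slides, which no animal of 7.4 Gy day 4, of day 7 or of day 12 shares. Of 6.7 Gy day 4, 2 animals lie in position 1 and 2 in position 2, with those of 7.4 Gy. On day 4 at 7.4 Gy position can thus be separated from irradiation only through the lower dose, and on days 7 and 12 they cannot be told apart. Day 4 and day 7 share no array position at either dose. Position and day can thus not be told apart in comparisons of these days.

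C7 was the member altered by irradiation. In unirradiated ileum its probe (gene 696926, chromosome 6) gave signals of 2.99, 3.41, 3.32 and 3.43 in the 4 animals. On day 4 it gave 4.55, 4.76, 4.54 and 4.33 at 6.7 Gy and 4.93, 5.08, 4.79 and 4.37 at 7.4 Gy. All 8 irradiated animals of day 4 lay above all 4 controls, whereas the doses overlapped each other.

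Unirradiated ileum had a mean C7 signal of 3.29 ± 0.21 (SD, n = 4), which compares with 4.55 ± 0.17 (SD, n = 4) on day 4 at 6.7 Gy and 4.79 ± 0.30 (SD, n = 4) at 7.4 Gy. The rise was 2.39-fold after the lower dose, a log2 change of 1.26 (SE 0.20, 95% confidence interval 0.85 to 1.67, limma adjusted p = 0.00221). After the higher dose it was 2.84-fold, a log2 change of 1.51 (SE 0.20, 95% confidence interval 1.09 to 1.92, limma adjusted p = 0.000211). Of all tested probes, 0.595% were called higher on day 4 at 6.7 Gy and 1.6% at 7.4 Gy. All irradiated animals lay above all controls for 4.1% and 7.84% of the tested probes.

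On day 7 the C7 signals were 3.77, 3.76, 3.70 and 4.13 at 6.7 Gy, and 4.16, 3.92, 3.50 and 4.48 at 7.4 Gy. All of them were above the highest control, which was also the case for 4.47% and 3.72% of tested probes. The log2 change was 0.55 (SE 0.20, adjusted p = 0.323) and 0.73 (SE 0.20, adjusted p = 0.0884), so that neither passed. On day 12 the signals were 3.77 and 3.88 after the lower dose and 3.33 and 4.03 after the higher dose. Both animals of the lower dose lay above all controls, as for 15.3% of tested probes with 2 animals in the group, and the log2 changes were 0.54 (adjusted p = 0.525) and 0.39 (adjusted p = 0.749). The latter was 0.74 without 7.4 Gy day 12 replicate 1 and 0.043 without replicate 2 of that group.

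**Figure D1:**
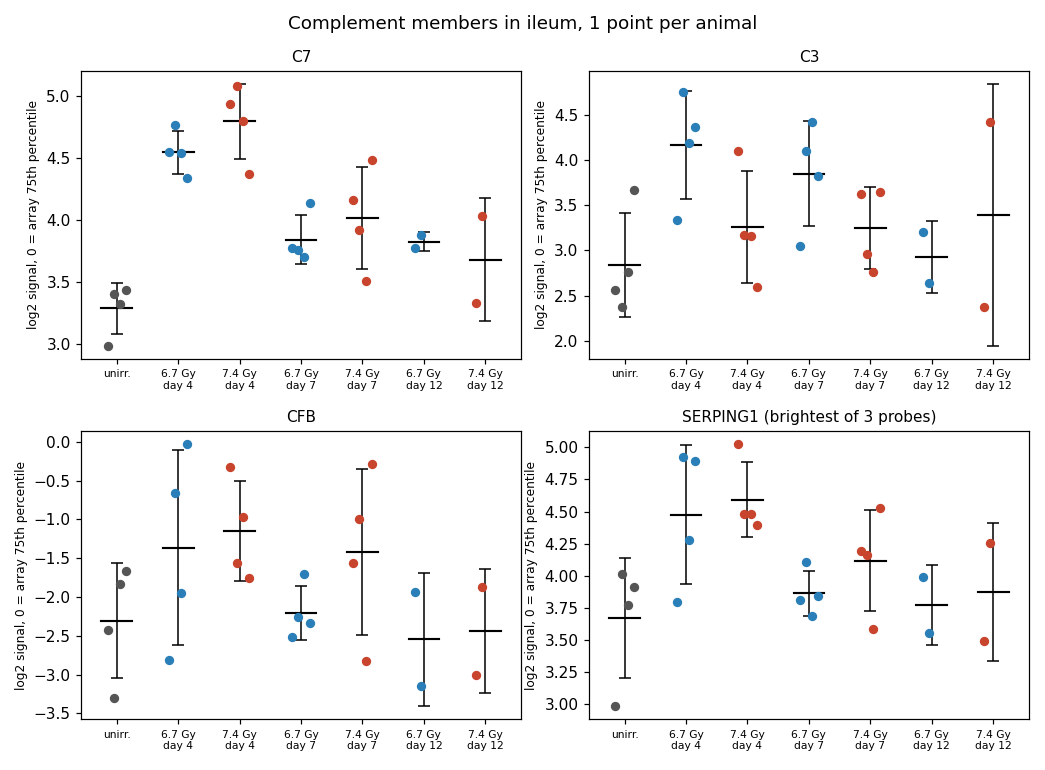
Log2 signal of C7, C3, CFB and SERPING1 (y axis, 0 is the 75th percentile of the array) in the 7 groups (x axis), with 1 point for each animal, the mean as a bar and the SD as whiskers. The C7 points of day 4, from 4.33 to 5.08, all lie above the controls, which reach 3.43, while the C3, CFB and SERPING1 points of most irradiated groups overlap the controls.

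From the highest to the lowest mean, the C7 signal ran from 7.4 Gy day 4 and 6.7 Gy day 4 to 7.4 Gy day 7, 6.7 Gy day 7, 6.7 Gy day 12, 7.4 Gy day 12 and unirradiated ileum. Neighbours in this order overlapped in every case, and no difference between the doses passed on any day. The log2 difference of 7.4 Gy from 6.7 Gy was 0.25 on day 4 (95% confidence interval -0.17 to 0.66, adjusted p = 0.883), 0.18 on day 7 (95% confidence interval -0.24 to 0.59, adjusted p = 0.992) and -0.15 on day 12 (95% confidence interval -0.73 to 0.44, adjusted p = 0.955). Between the doses 0% of tested probes were called on day 4, 0% on day 7 and 0.00277% on day 12.

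The C7 signal was also set against itself over time, between groups that share no array position. At 6.7 Gy all 4 animals of day 7 lay under all 4 of day 4, with a log2 difference of -0.70 (SE 0.20, adjusted p = 0.0843), and 3.94% of tested probes were separated in this direction. At 7.4 Gy the difference was -0.78 (SE 0.20, adjusted p = 0.0345), which passed for the adjusted p without reaching a fold change of 2, and 1 animal of day 7 lay within the range of day 4. Between these days 0.354% of tested probes were called at 6.7 Gy and 0.942% at 7.4 Gy. With slide as a block the difference at 7.4 Gy was -0.65 with an adjusted p of 0.119. With 1 animal left out it ran from -0.93 to -0.61, and without any 1 of 7.4 Gy day 4 replicates 1, 2 and 3 or of 7.4 Gy day 7 replicates 1, 2 and 3 the adjusted p lay between 0.0521 and 0.121.

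The rise of C7 on day 4 was also computed within slides at both doses and, at 6.7 Gy, within an array position. Against the control on the same slide, the difference was 1.55 and 0.93 for the 2 animals of 6.7 Gy that share slides 1 and 2, and 1.61 and 1.64 for the 2 animals of 7.4 Gy that share slides 3 and 4. Within position 1, which holds 2 animals of 6.7 Gy and all controls, it was 1.37, and no position holds both controls and animals of 7.4 Gy. With slide as a block the log2 change was 1.37 (adjusted p = 0.00852) and 1.49 (adjusted p = 0.00249), and with position as a covariate 1.37 (adjusted p = 0.0162) and 1.73 (adjusted p = 0.0428). C7 stayed called at both doses without any 1 of the 12 animals of these comparisons, at log2 changes of 1.16 to 1.33 and 1.41 to 1.65. On day 7 the same-slide differences were 0.79, 0.35, 0.38 and 0.70 at 6.7 Gy and 0.52 and 1.08 at 7.4 Gy. On day 12 they were 0.45 and 0.44 after the lower dose, and the animals of the higher dose share no slide with a control.

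SERPING1 encodes the C1 inhibitor, the serpin that inactivates C1r and C1s. Its brightest probe (gene 703928, chromosome 14) gave 2.98, 4.01, 3.77 and 3.91 in unirradiated ileum. On day 4 it gave 3.80, 4.93, 4.28 and 4.90 at 6.7 Gy and 5.03, 4.48, 4.48 and 4.39 at 7.4 Gy. All 4 animals of the higher dose lay above all controls, as for 7.84% of tested probes, and 3 of 4 of the lower dose did.

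The log2 change of SERPING1 on day 4 was 0.81 at 6.7 Gy (SE 0.27, adjusted p = 0.0998) and 0.92 at 7.4 Gy (SE 0.27, adjusted p = 0.0455), a 1.90-fold difference that passed for the adjusted p and stayed short of a fold change of 2. The second probe had log2 changes of 0.81 and 0.95 (adjusted p = 0.0796 and 0.0291) and the dimmest of 0.58 and 0.56 (adjusted p = 0.18 and 0.18). Across the 24 arrays the signals of the second and the dimmest probe followed the brightest with Pearson's r of 0.96 and 0.84, as a description. Control replicate 1 gave the lowest SERPING1 signal of the 24 animals with each of the 3 probes. It also gave the lowest C7 signal of the controls, and its marker lists stood apart, with a mean smooth muscle level of 1.91 against 4.26 to 4.35 in the other controls and a mean fibroblast level of 0.33 against 0.88 to 0.95. The part of these cells in the SERPING1 signal was not tested. Without it the changes were 0.58 (adjusted p = 0.243) and 0.70 (adjusted p = 0.161). With position as a covariate the change at 7.4 Gy was 0.70 (adjusted p = 0.535). SERPING1 was called altered at 7.4 Gy without control replicate 2 (1.04) or control replicate 4 (1.01), and at 6.7 Gy without 6.7 Gy day 4 replicate 1 (1.03).

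On day 7 SERPING1 gave 3.81, 4.11, 3.68 and 3.84 at 6.7 Gy and 4.19, 4.16, 3.59 and 4.53 at 7.4 Gy, and on day 12 it gave 3.99 and 3.55, and 3.49 and 4.25. These groups overlapped the controls. The log2 changes were 0.19, 0.45, 0.10 and 0.20 in that order (adjusted p = 0.908, 0.485, 0.949 and 0.938). From day 4 to day 7 the difference was -0.61 at 6.7 Gy (adjusted p = 0.231) and -0.48 at 7.4 Gy (adjusted p = 0.354). Between the doses it was 0.12, 0.26 and 0.10 on days 4, 7 and 12 (adjusted p = 0.945, 0.992 and 0.98).

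C3 encodes the central component whose cleavage yields the opsonin C3b and the anaphylatoxin C3a. Its probe (gene 703613, chromosome 19) gave 2.57, 2.37, 2.76 and 3.67 in unirradiated ileum. After 6.7-Gy TBI it gave 3.34, 4.75, 4.18 and 4.36 on day 4 and 3.05, 4.10, 4.42 and 3.82 on day 7, where 3 of 4 animals on each day lay above all controls. After 7.4-Gy TBI it gave 4.10, 3.17, 3.16 and 2.60 on day 4 and 3.62, 2.96, 2.76 and 3.65 on day 7, which overlapped the controls in all but 1 animal.

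The log2 change of C3 on day 4 was 1.32 at 6.7 Gy (SE 0.43, unadjusted p = 0.00599 and adjusted p = 0.0917 with limma) and 0.41 at 7.4 Gy (SE 0.43, adjusted p = 0.599). With 1 animal left out the latter ran from 0.13, without 7.4 Gy day 4 replicate 1, to 0.69, without unirradiated replicate 4. On day 7 it was 1.01 (SE 0.43, adjusted p = 0.452) and 0.41 (SE 0.43, adjusted p = 0.714). None of these passed. The direct comparison of the doses gave a log2 difference of -0.90 on day 4 (95% confidence interval -1.80 to -0.01, adjusted p = 0.877) and -0.60 on day 7 (95% confidence interval -1.49 to 0.29, adjusted p = 0.992), so that a difference between the doses was not shown. On day 12 C3 gave 3.21 and 2.65 after the lower dose and 2.37 and 4.42 after the higher dose, with log2 changes of 0.08 (adjusted p = 0.974) and 0.55 (adjusted p = 0.873) and a difference between the doses of 0.47 (adjusted p = 0.929). From day 4 to day 7 the difference was -0.31 (adjusted p = 0.711) and -0.01 (adjusted p = 0.993). Against the control on the same slide, the C3 change at 6.7 Gy was positive on days 4 and 7, at 1.61 and 1.99 and at 0.49, 1.73, 1.66 and 0.15, and on day 12 it was 0.44 on slide 3 and -1.03 on slide 4. At 7.4 Gy it was 1.34 on slide 3 and -0.51 on slide 4 on day 4, and 0.20 and 1.28 on slides 1 and 2 on day 7. The direction thus differed between slides at 6.7 Gy on day 12 and at 7.4 Gy on day 4. Both negative values are against unirradiated replicate 4, which gave the highest C3 signal of the controls (3.67). With 1 control per slide, slide and control animal cannot be told apart. When slide was a block the day 4 change at 6.7 Gy was 1.68 (adjusted p = 0.0653).

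CFB encodes factor B, the serine protease of the alternative pathway convertase. Its probe (gene 716809, chromosome 4) gave -2.42, -3.30, -1.84 and -1.67 in unirradiated ileum. On day 4 it gave -2.81, -0.66, -1.95 and -0.03 at 6.7 Gy and -0.32, -1.56, -0.97 and -1.75 at 7.4 Gy. Of the lower dose 2 of 4 animals lay above all controls, and 3 of 4 of the higher dose lay above all controls.

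The SD of CFB on day 4 at 6.7 Gy was 1.25 (n = 4), against 0.74 (n = 4) in unirradiated ileum. The log2 change was 0.94 (SE 0.57, adjusted p = 0.32) and 1.15 (SE 0.57, adjusted p = 0.228), and neither passed. On day 7 CFB gave -2.51, -2.25, -1.71 and -2.34 at 6.7 Gy and -1.56, -1.0, -2.83 and -0.29 at 7.4 Gy, with log2 changes of 0.10 (adjusted p = 0.984) and 0.88 (adjusted p = 0.518). On day 12 it gave -1.94 and -3.15, and -3.0 and -1.87, with log2 changes of -0.24 (adjusted p = 0.942) and -0.13 (adjusted p = 0.987). The dose differences were 0.21, 0.78 and 0.11 on days 4, 7 and 12 (adjusted p = 0.954, 0.992 and 0.99), and the differences of day 7 from day 4 were -0.84 at 6.7 Gy (adjusted p = 0.423) and -0.27 at 7.4 Gy (adjusted p = 0.841). On slide 2 the changes of CFB from the control were 3.27 for 6.7 Gy day 4 and 3.01 for 7.4 Gy day 7, against 0.47 and -0.41 on slide 1. For 6.7 Gy day 7 they were 1.04 on slide 2 and -0.09 on slide 1. The control on slide 2, unirradiated replicate 2, gave the lowest CFB signal of all animals (-3.30). With 1 control per slide, slide and control animal cannot be told apart.

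**Figure D2:**
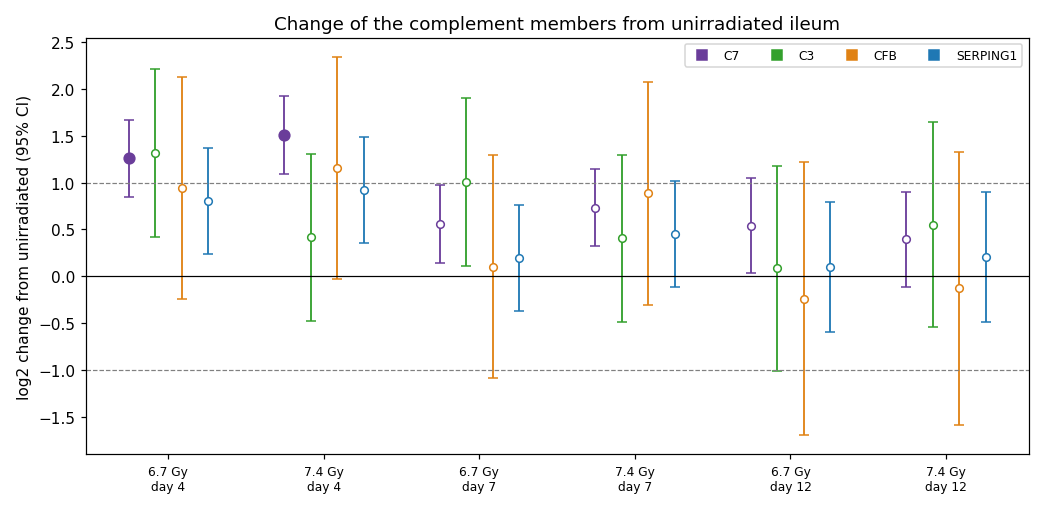
Log2 change from unirradiated ileum (y axis) for the 4 members in the 6 irradiated groups (x axis), with the 95% confidence interval of the limma fit. Filled points were called altered, and dashed lines mark a fold change of 2. The filled points are C7 on day 4, at 1.26 and 1.51.

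Counted over the members, 1 of 4 was altered on day 4 at each dose, C7 in both cases, and 0 of 4 in the other 9 comparisons. Without adjustment of the limma p, C3 at 6.7 Gy on day 4 and on day 7 would be added. Of all tested probes, 0.0526% were called higher on day 7 at 6.7 Gy and 0.114% at 7.4 Gy, and 0.108% and 0.0443% were called in either direction on day 12. All 4 members had a positive log2 change on days 4 and 7 at both doses. Their median was 1.1 and 1.04 on day 4, where the median over all 14160 genes was -0.07 and -0.05, and 0.37 and 0.59 on day 7, where it was 0.00 and -0.02. On day 12 the members' median was 0.09 and 0.30 with 3 of 4 positive.

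Of the genes without a probe under their symbol, CFD could be reached through its LOC number, which the RefSeq gene table of T2T-MMU8v2.0 assigns to CFD. CFD encodes factor D, also known as adipsin, the protease that cleaves factor B and that fat cells secrete. The probe gave 2.89, 3.57, 2.17 and 4.21 in unirradiated ileum, -1.41, 4.6, 3.23 and 3.63 on day 4 at 6.7 Gy and 3.93, 3.28, 4.00 and 4.15 at 7.4 Gy. The first animal of 6.7 Gy day 4 stood far under all others, and the remaining 23 lay between 2.17 and 4.6. Its array also had the lowest share of probes well above background of all arrays (72.7%). The mean level of 6 adipocyte markers in that animal was -1.57, the lowest of its group, where the controls ran from -1.16 to -0.50. It was similar or lower in 6.7 Gy day 4 replicate 4 (-1.53), 6.7 Gy day 7 replicates 3 and 4 (-1.69 and -1.70), 7.4 Gy day 7 replicate 4 (-1.63) and 7.4 Gy day 12 replicate 1 (-1.64), where CFD lay between 3.34 and 4.35. The part of fat cells or of the array in the CFD signal was not tested.

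The log2 change of CFD on day 4 was -0.70 at 6.7 Gy (SE 0.79, adjusted p = 0.604) and 0.63 at 7.4 Gy (SE 0.79, adjusted p = 0.679), and without that animal the former was 0.61 (adjusted p = 0.312). With position as a covariate the latter turned to -1.21, and with 1 animal left out it ran from 0.28, without unirradiated replicate 3, to 0.96, without unirradiated replicate 4. On day 7 CFD ran from 3.44 to 3.99 and from 3.75 to 4.35 at the lower and the higher dose, and on day 12 from 3.64 to 3.95 and from 3.34 to 3.97. Its log2 change on these days was 0.54, 0.88, 0.58 and 0.44, with adjusted p from 0.661 to 0.959.

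The table describes LOC722136 as similar to the C1s subcomponent and LOC722142 as similar to the C1r subcomponent, and the RefSeq table does not hold these numbers. On day 4 LOC722136 gave 0.64, 1.27, 0.90 and 1.56 at 6.7 Gy and 1.92, 1.45, 1.27 and 1.33 at 7.4 Gy, against 0.11, 0.15, 0.15 and 0.90 in unirradiated ileum. All 4 animals of the higher dose lay above all controls, as for 7.84% of tested probes. The log2 change was 0.76 (SE 0.25, adjusted p = 0.0946) and 1.17 (SE 0.25, adjusted p = 0.0111), the latter called altered. With position as a covariate it was 0.89 (adjusted p = 0.353). The probe was called altered at 7.4 Gy in 12 of 14 settings.

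LOC722142 gave 0.40, 1.17, 0.71 and 1.49 and then 2.0, 0.97, 0.92 and 1.14 on day 4 at the lower and the higher dose, against -0.06, 0.03, 0.34 and 0.90. Its log2 change was 0.64 (SE 0.28, adjusted p = 0.188) and 0.95 (SE 0.28, adjusted p = 0.0477), which passed for the adjusted p without reaching a fold change of 2. With position as a covariate the latter was 0.64 (adjusted p = 0.599). With 1 animal left out the change at 7.4 Gy ran from 0.71 to 1.15 (adjusted p = 0.0251 to 0.178). It was called altered in 2 of 8 such cases. The signals of the C1s-like and the C1r-like probe had a Pearson's r of 0.90 across the 24 arrays, as a description of signals that share the same arrays.

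**Figure D3:**
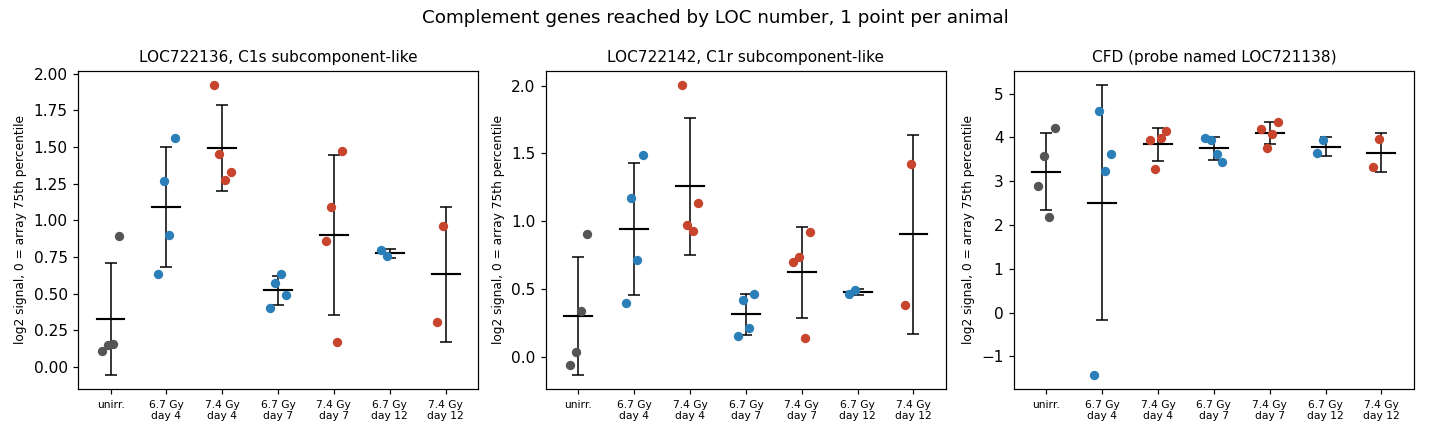
Log2 signal (y axis, 0 is the 75th percentile of the array) of the C1s-like and C1r-like probes and of CFD in the 7 groups (x axis), with 1 point for each animal, the mean as a bar and the SD as whiskers. On day 4 at 7.4 Gy the C1s-like points lie above the controls, and 1 CFD point of 6.7 Gy day 4 lies at -1.41, far under all others.

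Other complement genes were followed with a list of 49 genes that does not cover the whole cascade, and 29 of them had a tested probe. With limma, 0 of 29 were altered at 6.7 Gy and 2 of 29 at 7.4 Gy on day 4, COLEC12 and CD93, both higher. On days 7 and 12, 0 of 29 passed at either dose. Of all 14160 genes, 1.14% and 2.7% were altered on day 4, 0.339% and 0.72% on day 7 and 0.155% and 0.0424% on day 12. An unadjusted limma p under 0.05 was found for 11 and 13 of 29 on day 4, for 2 and 4 on day 7 and for 4 and 2 on day 12, at the lower and the higher dose, and on day 4 only 2 and 4 of them reached a fold change of 2. Over all genes such a p was found for 23.9% and 25.5% on day 4, 9.75% and 13.8% on day 7 and 9.51% and 8.78% on day 12. For the 29 genes the median log2 change on day 4 was 0.01 and 0.14.

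COLEC12, a scavenger receptor of the collectin family, had a log2 change of 1.03 (SE 0.32, adjusted p = 0.0805) at 6.7 Gy and rose by 1.24 (SE 0.32, adjusted p = 0.0272) at 7.4 Gy on day 4. CD93, a membrane protein of endothelial and myeloid cells, had a log2 change of 0.55 (SE 0.23, adjusted p = 0.161) and rose by 1.03 (SE 0.23, adjusted p = 0.0126). With slide as a block the changes at 7.4 Gy were of like size, 1.05 and 0.99, and no longer called (adjusted p = 0.0878 and 0.053). With position as a covariate they were larger, 1.75 and 1.23, and not called either (adjusted p = 0.141 and 0.155). With the normexp background the COLEC12 change was 0.97 (adjusted p = 0.0317), under a fold change of 2, and that of CD93 was 0.30 (adjusted p = 0.178). The CD93 probe was dim, with intensities of 25.5 to 33.4 in unirradiated ileum and 57.3 to 65.0 on day 4 at 7.4 Gy. It was not well above background in 6.7 Gy day 4 replicate 1. The methods' t-test with Benjamini-Hochberg adjustment did not call COLEC12 (adjusted p = 0.16).

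With 1 animal left out the call of COLEC12 at 7.4 Gy was kept in 3 of 8 cases (log2 change 0.98 to 1.52, adjusted p = 0.0125 to 0.103), and it was lost without unirradiated replicates 1 or 4 or 7.4 Gy day 4 replicates 1, 3 or 4. That of CD93 was kept in 6 of 8 cases and lost, at 0.93 and 0.97, without unirradiated replicate 4 or 7.4 Gy day 4 replicate 1. The anaphylatoxin receptor C3AR1 had log2 changes of 0.71 (adjusted p = 0.0679) and 0.88 (adjusted p = 0.0176), under a fold change of 2. VSIG4, the complement receptor of resident macrophages, has a brighter probe with changes of 0.46 and 0.73 and a dimmer one with 0.77 and 1.13, and the dimmer one was called at 7.4 Gy (adjusted p = 0.0346).

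Among terminal components, C6, which joins the membrane attack complex just before C7 and lies on chromosome 6 with only MROH2B between them in the RefSeq order of protein-coding genes, was not called in any comparison with the controls. The C6 signal was 1.16, -0.27, 2.84 and -0.97 in unirradiated ileum, and on day 4 it was -0.25, -0.70, -0.99 and -2.86 at 6.7 Gy and 0.86, -0.35, -0.51 and 1.24 at 7.4 Gy. The log2 change was -1.89 (SE 0.71, adjusted p = 0.132) and -0.38 (SE 0.71, adjusted p = 0.794). C9 had log2 changes of -0.54 and 0.09 (adjusted p = 0.499 and 0.932) and C8B of -0.37 and -0.45 with its brighter probe (adjusted p = 0.173 and 0.0866) and of -1.98 and -1.44 with its dimmer one (adjusted p = 0.0539 and 0.108).

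Membrane regulators on day 4 did not pass either. CD59, which blocks the membrane attack complex, had log2 changes of 0.43 and 0.56 (adjusted p = 0.169 and 0.0682), and CD46 of 0.04 and -0.13. CD55, which speeds the decay of convertases, had log2 changes of -0.47 and -0.16 on day 4 (adjusted p = 0.507 and 0.855), of -1.34 and -1.27 on day 7 (adjusted p = 0.233 and 0.182) and of -1.34 and -1.52 on day 12 (adjusted p = 0.44 and 0.369). CR2, the complement receptor of B cells and follicular dendritic cells, had log2 changes of -1.81 and -2.75 on day 4 (adjusted p = 0.277 and 0.0969), of -0.42 and -3.90 on day 7 (adjusted p = 0.958 and 0.0664) and of -3.74 and -2.14 on day 12 (adjusted p = 0.322 and 0.712). CR2 is itself 1 of the 5 tested B cell markers, whose median log2 change was -1.80 and -1.42 on day 4, -0.74 and -1.69 on day 7 and -1.42 and -1.25 on day 12. CD79B was called lower at both doses on day 4 and at 7.4 Gy on day 7, and CD79A at 6.7 Gy on day 4 and at 7.4 Gy on day 7. The part of B cells in the CR2 signal was not tested.

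**Figure D4:**
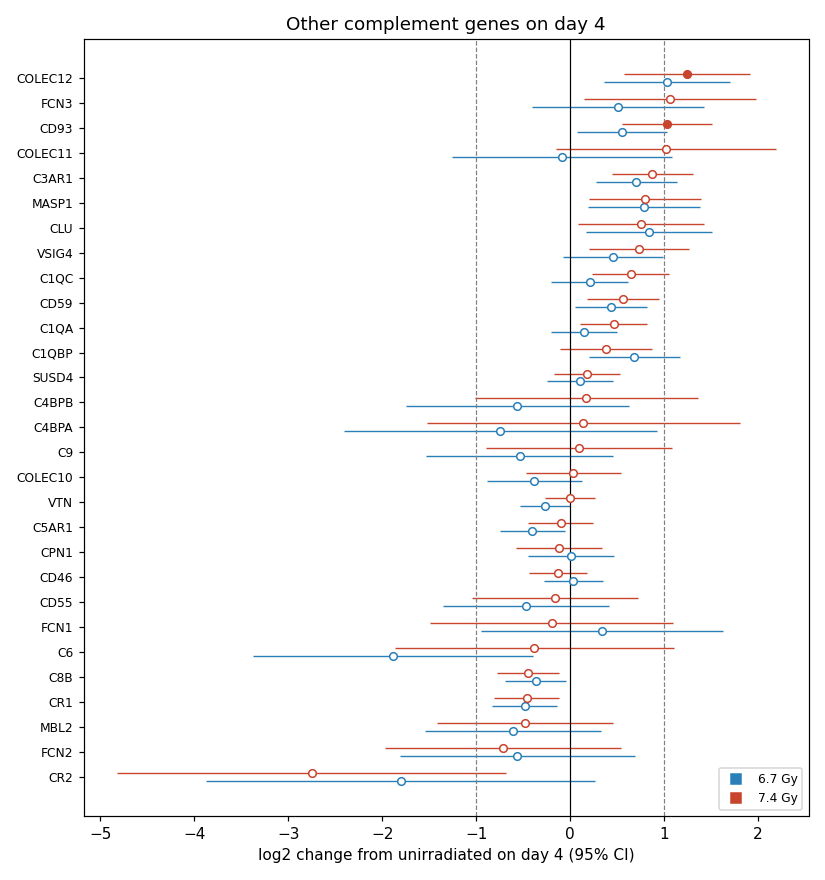
Log2 change from unirradiated ileum on day 4 (x axis) of the 29 tested genes of the further complement list (y axis, in the order of the change after 7.4 Gy), with the 95% confidence interval of the limma fit. Filled points were called altered, which were COLEC12 and CD93 at 7.4 Gy.

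Genes that inflammatory signals induce were followed beside C7. Of 16 tested genes of the interferon-gamma response, 0 were altered on day 4 at 6.7 Gy and 1 at 7.4 Gy, the proteasome subunit gene PSMB9, which was lower. Of 13 tested genes of NF-kB and the acute phase, 0 were altered at either dose on day 4. The median log2 change on day 4 was 0.17 and 0.00 for the former list and -0.04 and -0.04 for the latter. For the interferon-gamma list it was -0.15 and -0.09 on day 7 and 0.19 and 0.71 on day 12, with 0 altered. On day 12 at 7.4 Gy the mean level of this list was 0.83 and 1.38, against -0.29 to 0.66 in unirradiated ileum. On the interferon-gamma list 6.7 Gy day 4 replicate 4 stood apart, with a mean level of 1.97 against -0.31 to 0.28 in the rest of its group, and its mean level of neutrophil markers was -1.75 against -4.83 to -3.21. This animal had the highest CFB signal of the 24, and without it the CFB change at 6.7 Gy was 0.50 (adjusted p = 0.662). The part of these cells and genes in the CFB signal was not tested.

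Markers of cells that can make complement were followed in the same animals. The mean level of 8 fibroblast markers ran from 0.33 to 0.95 in unirradiated ileum, from 0.91 to 1.90 on day 4 at 6.7 Gy and from 1.43 to 2.05 at 7.4 Gy. At 6.7 Gy replicate 2 stood apart at 1.90, and the rest of its group ran from 0.91 to 1.04. Of these markers 0 were altered after the lower dose and 3 after the higher dose, COL3A1, DCN and LUM, all higher, where 1.14% and 2.7% of all genes were altered. These shares also stand beside the counts of the other lists on day 4. On day 7 at 6.7 Gy, where all C7 signals lay above the controls, the fibroblast level ran from 0.57 to 0.82 and within the controls. After 7.4-Gy TBI on day 7 it ran from 1.09 to 1.53.

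Of 6 tested macrophage markers, 0 were altered on day 4 after the lower dose and 1, CD14, after the higher dose, where the mean level of the list ran from 0.02 to 0.61 against -0.34 to 0.11 in unirradiated ileum. Of the higher dose only replicate 1 lay above all controls, and the rest of its group ran from 0.02 to 0.05. The mean level of 6 endothelial markers ran from -2.15 to -1.64 in unirradiated ileum, from -2.28 to -1.32 on day 4 at 6.7 Gy and from -1.58 to -1.25 at 7.4 Gy, where all 4 animals lay above all controls. Of these markers 0 were altered at the lower dose and 1 at the higher dose, VWF, upward. Of 6 tested hepatocyte markers 0 were altered on day 4 at either dose, and the list of 8 had mean levels from -3.65 to -2.59 over all 24 animals, with 4 of 8 well above background on all arrays. The 5 tested smooth muscle markers had mean levels from 1.91 to 4.35 in unirradiated ileum, from 3.76 to 4.62 at 6.7 Gy and from 4.32 to 4.87 at 7.4 Gy on day 4, with 0 altered. On that day 1 of 6 ileal enterocyte markers (VIL1) was lower at both doses, the B cell markers CD79A and CD79B were lower at 6.7 Gy and CD79B at 7.4 Gy, and 0 of 3 neutrophil and 0 of 6 adipocyte markers were altered. The part of these cells in the C7 and CD93 signals was not tested.

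**Figure D5:**
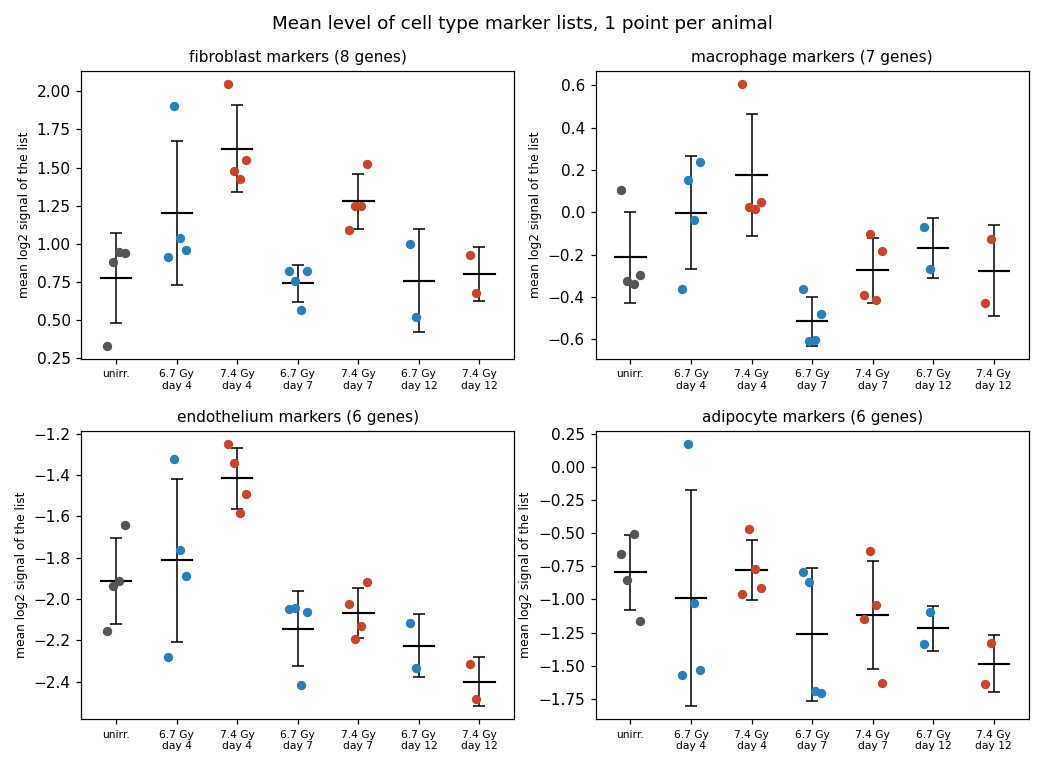
Mean log2 signal (y axis) of the fibroblast, macrophage, endothelial and adipocyte marker lists in the 7 groups (x axis), with 1 point for each animal, the mean as a bar and the SD as whiskers. The fibroblast list of 7.4 Gy day 4 runs from 1.43 to 2.05, above the controls at 0.33 to 0.95, and the adipocyte list overlaps the controls on day 4.

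The gene whose signal was most like that of C7 over the 24 arrays, among 14155 genes, was ALDH1A2, which encodes a retinaldehyde dehydrogenase that makes retinoic acid, with a Pearson's r of 0.93, a Spearman's rho of 0.92 and an r of 0.70 after the group means were subtracted. For C3 it was SERPINA3, an acute-phase serpin (r 0.75, rho 0.83, 0.64 within groups). For CFB it was STEAP1 (r 0.84, rho 0.81, 0.89 within groups), and for SERPING1 it was TMEFF1 (r 0.88, rho 0.79, 0.80 within groups). Among the members the signals of C7 and SERPING1 had an r of 0.80 (0.58 within groups), those of CFB and SERPING1 0.80 (0.72 within groups) and those of C3 and CFB 0.57 (0.73 within groups). These are descriptions, since all signals share the same arrays.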

How the data were processed

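The authors hybridized ileum RNA to Agilent single-color rhesus arrays. The deposited scanner files, made with Feature Extraction (version 11.0.1.1 in their headers), give a background-subtracted intensity for each spot. The authors' normalized table holds log2 signals minus the 75th percentile of each array and then each probe's median. Here it named the probes and served as an alternative.

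Main values were recomputed from the deposited intensity. Outlier spots were dropped if the probe kept another spot, spots were averaged as log2, and the 75th percentile of the array (837.3 to 1330 intensity units) was subtracted. LOC numbers were matched to the RefSeq gene table. A probe was tested if all arrays of some group had it well above background. The fit used limma 3.58.1 and the data.table package (1.17.8) under R 4.3.3, and had 7 group means and 11 comparisons. It was tested on simulated data. The brightest tested probe stood for its gene. Replicates are separate animals. Figures were drawn with matplotlib 3.10.9.

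One complement gene was left out of the further list and is not reported here, so that the counts over this list do not cover the whole cascade. Named were all members, altered genes of the further complement list and the most similar gene of each member. C3AR1, VSIG4, C6, C8B, C9, CD46, CD55, CD59, CR2 and the probes under LOC numbers were chosen after their values were seen. Members, lists and tests were chosen with earlier results of these data known. Alternatives were normexp background (offset 50, on spot medians), quantile normalization, other filters, the methods' t-test, blocks for slide, scan day and replicate number, position as a covariate and leaving out each animal. No sequences or coordinates are given, since the reference used here names genes in another build than that of the array and holds no sequences.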

Additional observations from a re-analysis of the deposited data

Results flagged for a closer look

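Of 55 groups of 4 animals examined over the complement probes, 5 held an animal whose gap to the nearest of the other 3, divided by the range of the group, was above the 95% critical value of Dixon, where chance gives about 1 in 20 groups. These animals were 6.7 Gy day 7 replicate 4 for C7 (4.13), 7.4 Gy day 4 replicate 1 for the brightest SERPING1 probe (5.03), unirradiated replicate 1 for the second SERPING1 probe (-1.32), 7.4 Gy day 7 replicate 3 for the dimmest SERPING1 probe (-1.71) and unirradiated replicate 4 for the C1s-like probe (0.90). For CFD, the low animal of 6.7 Gy day 4 gave a ratio of 0.773, under that value. Unirradiated replicate 1 is the animal without which the SERPING1 change on day 4 was 0.58 at 6.7 Gy and 0.70 at 7.4 Gy.

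At 7.4 Gy the C7 signal of day 7 differed from that of day 4 by a log2 value of -0.78 (limma adjusted p = 0.0345), which is under a fold change of 2 and was therefore not called. Over 13 settings the difference ran from -0.88 to -0.65 and the adjusted p from 0.0254 to 0.198, and with 1 animal left out from -0.93 to -0.61 and from 0.0194 to 0.121. Both days have the same controls, so that this is the difference between the irradiated groups themselves. These groups share no array position, so that position and day cannot be told apart.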

How the results depend on the processing

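C7 on day 4 was called in 13 of 14 settings at 6.7 Gy (log2 change 1.25 to 1.37) and in 14 of 14 at 7.4 Gy (1.49 to 1.73). The exception was the methods' t-test with Benjamini-Hochberg adjustment at 6.7 Gy, which called 0 members and 0 of all probes (663 without adjustment). Without adjustment that t-test gave 2 members at 6.7 Gy on day 4 (C7 and C3) and 1 on day 7 (C3). Quantile normalization gave 2 at 7.4 Gy on day 4 (C7 and SERPING1). Leaving out 1 animal gave 1 to 2 members on day 4 at each dose. Replicate numbers were not taken to pair the animals, since same-numbered arrays did not all deviate together from their group means (r from -0.264 to 0.23), although 10 of 20 arrays were closest to their own number, a hint from the data and not from the design. With the replicate block C7 changed by 1.26 and 1.51 (adjusted p = 0.00418 and 0.000589), and it changed no call of a member. The following changes, none of them called, turned their sign. With the replicate block CFB at 7.4 Gy on day 12 was 0.020, and with scan day as a block 0.16. With normexp SERPING1 at 6.7 Gy on day 12 was -0.062. With slide as a block C3 at 6.7 Gy on day 12 was -0.24, CFB at 7.4 Gy on day 12 was 0.26, the dose difference was -0.085 for CFB on day 4 and 0.080 for C7 on day 12, and day 7 against day 4 at 7.4 Gy was 0.32 for C3 and 0.028 for CFB. With position as a covariate CFD at 7.4 Gy on day 4 was -1.21 and the dose difference of CFB on day 4 was -0.16. Leaving out 1 animal, SERPING1 ran from -0.036 to 0.31 and CFB from -0.23 to 0.31 at 6.7 Gy on day 7, and CFD from -1.39 to 0.61 at 6.7 Gy on day 4. On day 12 at 6.7 Gy the ranges were -0.13 to 0.32 for SERPING1, -0.20 to 0.36 for C3 and -0.85 to 0.36 for CFB, and at 7.4 Gy -0.18 to 0.58, -0.47 to 1.57 and -0.70 to 0.43. The dose difference ran from -0.11 to 0.27 for SERPING1 and -0.27 to 0.66 for CFB on day 4. Day 7 against day 4 at 7.4 Gy ran from -0.23 to 0.27 for C3 and -0.65 to 0.20 for CFB. The dose difference on day 12 ran from -0.28 to 0.48 for SERPING1, -0.49 to 0.20 for C7, -0.55 to 1.49 for C3 and -0.50 to 0.72 for CFB. Day 12 rests on 2 animals per dose, and a lone animal left there was assumed to vary like the other groups. The cause of these shifts was not tested. The number of animals limits the precision, and all members were well above background.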
